A study of Homo sapiens with 6 samples.

Results

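The ATF4/CHOP stress response genes were examined in SW872 cells after Apatinib treatment. They are 10 genes, ATF4, ATF5, DDIT3, DDIT4, TRIB3, CHAC1, NUPR1, SESN2, ASNS and PPP1R15A, taken as the rows of the deposited counts table whose gene symbol equals a listed symbol. All 10 were found, each once, among 57773 genes. Of these, 4 genes rose with Apatinib (NUPR1, ASNS, TRIB3 and ATF4), beside 5.97% of all genes tested, none fell, beside 5.48%, and 6 did not pass the test. NUPR1 and ASNS passed in all 14 alternative analyses. TRIB3 and ATF4 lost the call without control replicate 1, without control replicate 2 or with their counts summed. TRIB3 was also not called by DESeq2 or by limma on FPKM. DDIT3, the gene of CHOP itself, was among the 6, and passed in 1 of 14 alternative analyses, the one in which low counts were not filtered. In 9 of the 10 genes, ATF5 being the exception, log2 expression had a larger SD among the treated than among the control replicates, and in 7 of the 10 genes, Apatinib replicate 2 was at least 1.5 times as high as each of the other 5 samples, beside 2.5% of all genes tested.

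SW872 is an established human liposarcoma cell line, so the samples come from a single line. RNA was measured by mRNA sequencing in 3 replicates treated with 18 μM Apatinib, a small-molecule inhibitor of the vascular endothelial growth factor receptor VEGFR2, for 24 h, and in 3 control replicates whose labels give no treatment. The labels name no vehicle for the control and no control culture time. The study's methods call the replicates biological, and no source used here says that they came from separate cultures. The comparison asks which transcripts changed in the treated cells.

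ATF4 is a transcription factor of the integrated stress response. When a kinase that senses endoplasmic reticulum stress, amino acid shortage, heme shortage or double-stranded RNA phosphorylates the translation factor eIF2alpha, most protein synthesis slows, while the ATF4 message is translated better because of short open reading frames ahead of its coding sequence. ATF4 then raises transcription of genes for amino acid supply, of the factor CHOP (gene DDIT3) and of feedback regulators. Much of this control acts on translation, so the amount of ATF4 mRNA is not a measure of ATF4 protein, and no protein was measured in the data analysed here. In a bulk RNA sample, a change in the share of responding cells and a change in RNA per cell cannot be told apart.

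The upstream sequences of the members that held a motif of this family are shown first, beside the values of those genes further on. RefSeq promoters of GRCh38.p14, 250 bases before to 50 bases after an annotated start, were found for 9 of the 10 genes. NUPR1 was the gene without an entry. The composite motif TGATGNAA, of the kind bound by ATF4 with a C/EBP partner, was searched on both strands and occurred in CHAC1 and ASNS. The motif TGACGTCA, the cyclic AMP response element, occurred in PPP1R15A. The stretches are printed 5′ to 3′ on the gene's own strand with the match in capitals.
CHAC1, chr15:40953221-40953470, plus strand: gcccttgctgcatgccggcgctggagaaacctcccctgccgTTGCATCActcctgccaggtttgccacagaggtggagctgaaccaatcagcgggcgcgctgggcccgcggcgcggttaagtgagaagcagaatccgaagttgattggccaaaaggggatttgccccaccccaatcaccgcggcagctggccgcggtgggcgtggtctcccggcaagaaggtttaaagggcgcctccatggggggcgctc
ASNS, chr7:97872409-97872658, minus strand: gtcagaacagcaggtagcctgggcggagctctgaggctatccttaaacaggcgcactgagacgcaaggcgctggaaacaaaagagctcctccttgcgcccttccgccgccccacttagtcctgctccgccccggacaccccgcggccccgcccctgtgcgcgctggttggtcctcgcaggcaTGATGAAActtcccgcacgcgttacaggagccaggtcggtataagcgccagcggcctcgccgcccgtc
PPP1R15A, chr19:48872171-48872420, plus strand: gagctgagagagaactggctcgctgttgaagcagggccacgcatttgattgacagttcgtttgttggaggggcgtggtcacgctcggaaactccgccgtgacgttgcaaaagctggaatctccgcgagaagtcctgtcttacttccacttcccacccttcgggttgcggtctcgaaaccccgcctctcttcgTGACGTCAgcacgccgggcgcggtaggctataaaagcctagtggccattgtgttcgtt

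In CHAC1 the match lay on the opposite strand (TGATGCAA) and began 209 bases before the start. It began 68 bases before the start in ASNS (TGATGAAA) and 58 bases before it in PPP1R15A. Of 35116 promoters of the same length, 3.62% held the composite motif and 1.85% held TGACGTCA, and no stretch of 8 bases can match both. These shares count every annotated start, whereas a member was counted if any of its starts had a match. Another annotated start of ASNS had none. The motif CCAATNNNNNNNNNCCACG, the endoplasmic reticulum stress element, was in 0.0769% of promoters and in none of the 9. A match is a description of the letters, and the windows are those of 1 reference annotation. Of the genes with a match, ASNS passed the test and CHAC1 and PPP1R15A did not, and all had positive log2 fold changes (1.70, 0.88 and 1.07).

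Counts per replicate totalled between 17043314 and 22067558, and 16290 genes passed edgeR's filter on low counts. The unit of expression is CPM, in which counts are divided by the library size adjusted with TMM factors, and every fold change is on this scale unless FPKM is named. A gene was called a DEG at a false discovery rate (FDR) under 0.05, from edgeR's quasi-likelihood test adjusted over the 16290 genes, with a log2 fold change over 0.5 in size. Of all genes tested, 5.97% were called higher and 5.48% lower. In 17.5% every Apatinib replicate was above every control replicate, and in 15.7% every Apatinib replicate was below. The first and second control replicates differed less than the other pairs within a group (mean chi-square per gene 2.27, against 18.2 to 44.5), though more than sampling noise, and whether they are separate cultures cannot be told from the labels. They were kept as 2 samples, and with their counts summed as 1 sample only 292 genes were called, against 1866, so calls lost in that setting are given with the genes and lists they touch. The mesenchymal markers VIM and PDGFRB were expressed (881 to 1263 and 26.8 to 40.8 FPKM), with COL1A2 (4.79 to 7.16 FPKM), COL1A1 (3.49 to 4.57 FPKM) and THY1 (1.02 to 1.81 FPKM) lower. ADIPOQ, FABP4 and PTPRC had 0 counts in every replicate, LEP and CD3E at most 2, KDR at most 11, PLIN1 at most 30 and CDH5 at most 56. CD68 had at most 1 count although its FPKM was 1.79 to 11.8, and of the epithelial markers EPCAM and CDH1 had at most 7 and 2 counts, while KRT8 (21.0 to 41.4 FPKM) and KRT18 (133 to 184 FPKM) were expressed.

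**Figure D1:**
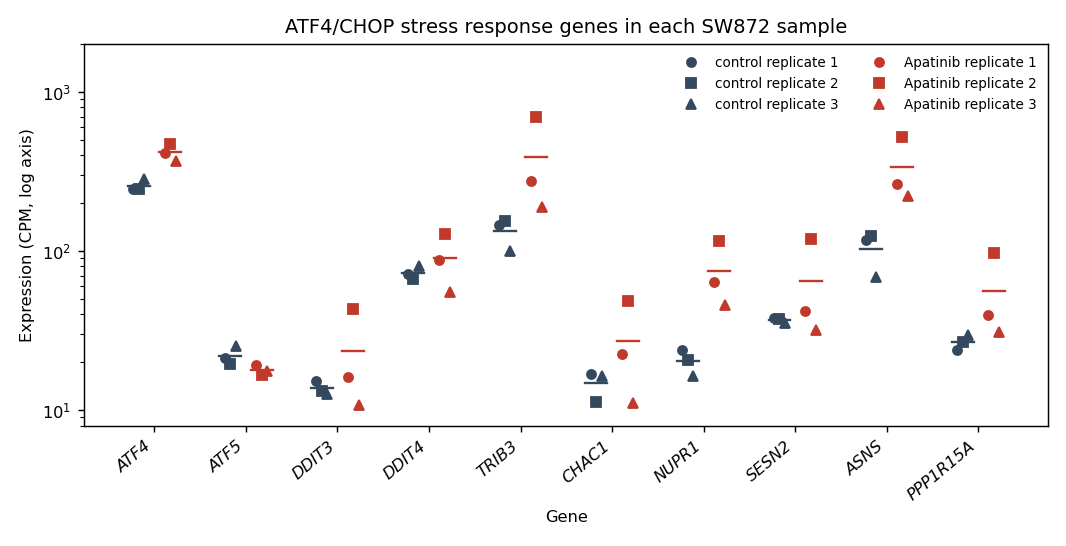
Expression of the 10 genes in each replicate, in CPM on a log axis, with control replicates in dark blue and Apatinib replicates in red and a horizontal line at each group's mean. Apatinib replicate 2 (red square) was the highest of its group in 9 of the 10 genes, ATF5 being the exception.

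ATF4 mRNA rose 1.62-fold. It measured 416, 473 and 366 CPM in Apatinib replicates 1, 2 and 3, and 245, 246 and 283 CPM in control replicates 1, 2 and 3. All treated replicates stood above all controls, and of the 4 genes that rose ATF4 had the smallest SD of log2 CPM among the treated replicates (0.18). The log2 fold change was 0.70 ± 0.13 (SE, n = 3 per group; edgeR FDR = 0.0104). The call was lost without control replicate 1 (edgeR FDR = 0.0721), without control replicate 2 (edgeR FDR = 0.0711) and with these controls summed (edgeR FDR = 0.0722), where the log2 fold change remained 0.66.

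ATF5, a related basic leucine zipper factor that is also controlled at translation, did not pass the test. Its expression was 19.1, 16.6 and 17.7 CPM with Apatinib and 21.2, 19.6 and 25.1 CPM in the controls. Every treated replicate was below every control, and ATF5 was the only member with a negative log2 fold change, -0.30 ± 0.15 (SE; edgeR FDR = 0.185). On the FPKM scale the groups overlapped, with 9.39 to 10.4 FPKM treated and 10.1 to 12.1 FPKM in the controls. ATF5 shares 626 exon bases with NUP62 on the opposite strand in GENCODE 29. The strand setting of the counting is not given in the sources used here, and the part of such shared reads in the ATF5 counts was not tested.

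DDIT3 encodes CHOP, a C/EBP-family factor known for its part in apoptosis under lasting endoplasmic reticulum stress. It measured 16.1, 43.4 and 10.7 CPM with Apatinib, against 15.3, 13.3 and 12.6 CPM in the controls. Replicate 2 stood far above every control, replicate 1 just above them and replicate 3 below all of them. Its log2 fold change of 0.77 ± 0.39 (SE; edgeR FDR = 0.205) had a 95% confidence interval from -0.08 to 1.63. Without Apatinib replicate 2 it was -0.03 (edgeR FDR = 0.940), and DDIT3 was called at 0.79 when low counts were not filtered (edgeR FDR = 0.000293). Without that filter the edgeR p was far smaller at nearly the same fold change, 7.45e-06 against 0.0718. This was so although only replicate 2 stood far above the controls. Calls of any gene from that setting are therefore not read as stronger results. In FPKM, replicate 1 (19.7) was within the range of the controls (18.2 to 23.2). DDIT3 shares 355 exon bases with MARS, a tRNA synthetase gene on the opposite strand that rose from 151 to 287 CPM, and the part of shared reads was not tested.

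Of the feedback genes, TRIB3, a pseudokinase that binds ATF4 and CHOP and limits their activity, rose 2.91-fold. Apatinib replicates held 274, 699 and 190.2 CPM, and controls held 145, 155 and 99.6 CPM. The groups did not overlap, but replicate 2 alone was 5.24 times the control mean while replicates 1 and 3 were 2.06 and 1.43 times it. The change was 1.54 ± 0.38 on the log2 scale (SE; edgeR FDR = 0.0268) and 0.81 without Apatinib replicate 2, where the call held (edgeR FDR = 0.0334). TRIB3 was not called without control replicate 1 (edgeR FDR = 0.0850), without control replicate 2 (edgeR FDR = 0.0730), with these summed (edgeR FDR = 0.0828), by DESeq2 (adjusted p = 0.0618) or by limma on FPKM (FDR 0.0856 and 0.0873 for the pseudocounts of 1 and 0.1).

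PPP1R15A encodes GADD34, the stress-induced subunit that directs a phosphatase to eIF2alpha and so restores translation. PPP1R15A measured 39.6, 97.6 and 30.9 CPM with Apatinib and 23.7, 26.8 and 29.7 CPM in the controls. Treated replicates were all above the controls, with replicate 3 just above the highest of them. The log2 fold change of 1.07 ± 0.34 (SE) narrowly missed the threshold (edgeR FDR = 0.0584). It passed without Apatinib replicate 3 (1.36, edgeR FDR = 0.0238) and without control replicate 3 (1.15, edgeR FDR = 0.0426), and when low counts were not filtered (1.08, edgeR FDR = 2.74e-09), and was 0.40 without Apatinib replicate 2 (edgeR FDR = 0.107).

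NUPR1 showed the greatest rise of the 10 genes, 3.70-fold. It encodes a small nuclear protein that is induced by many kinds of stress. CPM values of 63.5, 115.9 and 46.0 with Apatinib stood against 23.8, 20.7 and 16.5 in the controls. Even the lowest treated replicate was well above the highest control. On the log2 scale this was 1.89 ± 0.29 (SE; edgeR FDR = 0.00491), and 1.44 without Apatinib replicate 2 (edgeR FDR = 0.00380). NUPR1 and ASNS were called in all 14 alternative analyses.

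ASNS encodes asparagine synthetase, which makes asparagine from aspartate and glutamine and is a classic ATF4 target. It rose 3.24-fold, from 118, 123 and 68.8 CPM in control replicates 1, 2 and 3 to 263, 519 and 223 CPM with Apatinib. The groups did not overlap, and control replicate 3 was the lowest of all samples. A log2 fold change of 1.70 ± 0.30 (SE; edgeR FDR = 0.00847) was found, and 1.24 without Apatinib replicate 2 (edgeR FDR = 0.0113). Reads of ASNS can also fall on near-identical copies: ASNSP1 had 124, 476 and 115 counts in the treated replicates and 81, 85 and 41 counts in the control replicates, far below the 1503 to 9193 counts of ASNS. The annotation also lists AC079781.5 on the same strand, with 1985 exon bases in common with ASNS.

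CHAC1, an enzyme that degrades glutathione, did not pass the test. Its CPM was 22.6, 48.4 and 11.0 with Apatinib and 16.9, 11.3 and 16.3 in the controls. In CPM, replicate 3 was just below all controls and the other treated replicates were above them. In FPKM, Apatinib replicate 3 (4.28) was above control replicate 2 (4.10). The log2 fold change of 0.88 ± 0.40 (SE; edgeR FDR = 0.157) became 1.26 without Apatinib replicate 3 (edgeR FDR = 0.0278) and 0.18 without Apatinib replicate 2 (edgeR FDR = 0.690). With no filter on low counts it was called at 0.89 (edgeR FDR = 1.45e-05).

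DDIT4 and SESN2 encode inhibitors of mTORC1, the kinase complex that drives growth, and DDIT4 is also known as REDD1. Neither passed the test. DDIT4 held 88.0, 128 and 55.0 CPM with Apatinib and 72.2, 66.9 and 80.1 CPM in the controls. Treated replicates stood on both sides of the controls, with a log2 fold change of 0.31 ± 0.24 (SE; edgeR FDR = 0.410). SESN2 held 41.8, 119.8 and 32.1 CPM with Apatinib against 38.2, 37.3 and 35.4 CPM in the controls. Its controls agreed more closely than those of any other member (SD of log2 CPM 0.056), and its treated replicates were among the most spread (1.00). SESN2 had a log2 fold change of 0.81 ± 0.37 (SE; edgeR FDR = 0.170) and 0.00 without Apatinib replicate 2 (edgeR FDR = 0.988), and was called with no filter on low counts (0.82, edgeR FDR = 8.95e-06). DDIT4 was at -0.03 without Apatinib replicate 2 (edgeR FDR = 0.927). DDIT4 shares 847 exon bases with DDIT4-AS1 on the opposite strand, and reads of both cannot be told apart if strand was not used.

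**Figure D2:**
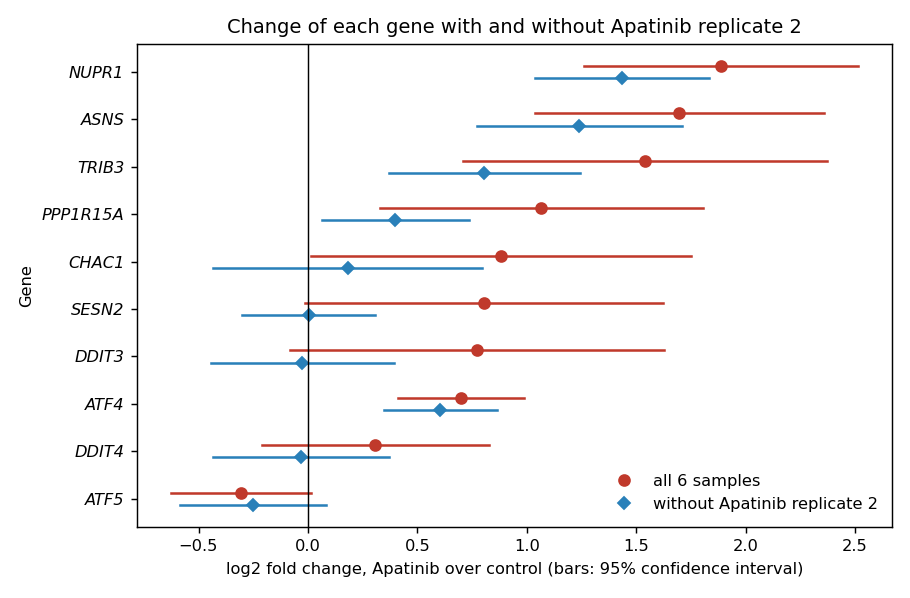
The log2 fold change of each gene, Apatinib over control, with its 95% confidence interval from edgeR, from all 6 samples (red circles) and without Apatinib replicate 2 (blue diamonds). NUPR1, ASNS, TRIB3 and ATF4 lay above 0 in both, whereas DDIT3, DDIT4 and SESN2 lay at -0.03, -0.03 and 0.00 without replicate 2.

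Of the 10 genes, 4 were called higher with Apatinib, beside 5.97% of all genes, and 0 were called lower, beside 5.48%. At an unadjusted edgeR p under 0.05, 6 were higher and 0 lower, beside 15.3% of all genes in each direction. Limma on FPKM called 3 higher and 0 lower with either pseudocount, beside 3.51% higher and 1.52% lower of 15829 genes with a pseudocount of 1, and 3.65% and 1.47% with 0.1. The groups did not overlap upward in 5 genes (ATF4, TRIB3, NUPR1, ASNS and PPP1R15A), beside 17.5%, and downward in 1 (ATF5), beside 15.7%. DESeq2 called 3 of the 10 higher (NUPR1, ASNS and ATF4), beside 6.73% of the 14901 genes to which it gave an adjusted p, and 0 lower, beside 7.05%. Without Apatinib replicate 2, the same 4 genes were called higher as with all samples, beside 5.28% of 16762 genes, and 0 lower, beside 3.63%. The count was 2 without control replicate 1, without control replicate 2 or with these summed, where 275, 300 and 292 genes were called in all. It was 6 without Apatinib replicate 3, where 2030 genes were called in all. The median log2 fold change of the 10 genes was 0.84, against 0.003 over all genes tested, and 0.29 without Apatinib replicate 2.

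Apart from ATF5, the genes were highest in the same treated replicate. The median log2 ratio of the 10 genes to the control mean was 0.59 in Apatinib replicate 1, 1.70 in replicate 2 and 0.00 in replicate 3, against 0.00, -0.01 and -0.03 over all genes tested. By CPM, 9 of 10 genes were above every control in replicates 1 and 2, beside 39.4% and 36.6% of all genes. In replicate 3, 5 were above every control by CPM (ATF4, TRIB3, NUPR1, ASNS and PPP1R15A). The other 5 were below every control (ATF5, DDIT3, DDIT4, CHAC1 and SESN2), beside 30% above and 33.5% below of all genes. Replicate 2 was the highest treated replicate in 9 of the 10 genes, beside 35.9% of all genes, and at least 1.5 times every other sample in 7, beside 2.5%. The SD of log2 CPM had a median of 0.77 within the treated group and 0.17 within the control group, against 0.22 and 0.15 over all genes. Total counts of Apatinib replicate 2 (17275850) were within the range of the other libraries.

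Likeness between the genes was described by Pearson's r of log2 CPM over the 6 samples, which include both groups and the high replicate 2. It was 0.99 between DDIT3 and SESN2, 0.97 between DDIT4 and CHAC1, and 0.98 between NUPR1 and ASNS. ATF4 was nearest to NUPR1 (0.94) and ASNS (0.87) and less close to DDIT3 (0.61) and DDIT4 (0.58). ATF5 was negatively correlated with every other member, from -0.24 with DDIT4 to -0.92 with ASNS. Outside the members, among 14762 genes over 1 CPM, the patterns most like that of ATF4 belonged to TMEM173 and LINC00493 (0.999 each) and RAB32 (0.997). TMEM173, the gene of the innate immune adaptor STING, rose by 1.21 on the log2 scale (edgeR FDR = 0.00447), RAB32 by 0.70 (edgeR FDR = 0.0119, and 0.0784, 0.0762 and 0.0734 without control replicate 1, without control replicate 2 and with both summed), and LINC00493 had 0.32 (edgeR FDR = 0.104). The genes most like DDIT3 were RFFL (0.997), PPP1R13B (0.996) and CYP4F12 (0.996), none of which passed the test, with log2 fold changes of 0.23, 0.11 and 0.10 (edgeR FDR = 0.450, 0.609 and 0.774).

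Levels of the genes against each other were compared as FPKM, in which fragments are divided by transcript length and by library size. In the controls ATF4 was highest with 105.7 ± 8.94 FPKM (SD, n = 3), followed by DDIT4 with 75.3 ± 7.62 FPKM. ASNS (37.8 ± 11.0) and TRIB3 (37.6 ± 9.02) came next and overlapped. DDIT3 (20.3 ± 2.56) overlapped with NUPR1 (15.4 ± 3.41), and NUPR1 with ATF5 (11.3 ± 1.05). PPP1R15A (7.68 ± 0.679) and SESN2 (7.39 ± 0.467) overlapped, and CHAC1 was lowest with 5.52 ± 1.27 FPKM. With Apatinib, ATF4 had the highest mean with 169 ± 25.7 FPKM, and ASNS (123 ± 62.7) and TRIB3 (112 ± 82.4) stood ahead of DDIT4 (94.3 ± 46.0). NUPR1 reached 59.1 ± 29.8 FPKM and stood ahead of DDIT3 (30.9 ± 24.1). PPP1R15A (16.2 ± 10.9), SESN2 (13.2 ± 10.1) and CHAC1 (10.5 ± 7.64) followed, and ATF5 was last with 9.82 ± 0.528 FPKM. Every pair of neighbours in the treated order overlapped, so this order is not resolved beyond the spread of the replicates.

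**Figure D3:**
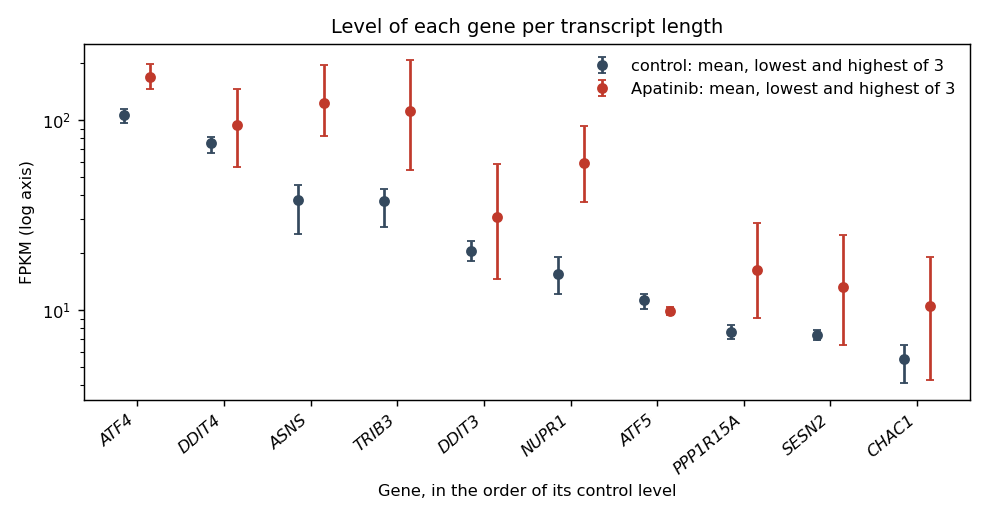
Deposited FPKM of each gene on a log axis, ordered by the control mean, with points at the group means and bars from the lowest to the highest of 3 replicates, control in dark blue and Apatinib in red. ATF4 had the highest mean of the 10 genes in both groups, although its treated range overlapped with that of ASNS and TRIB3.

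Relatives of these genes in the same families were not called by edgeR, 0 of 7 tested, with a median log2 fold change of -0.10. At an unadjusted p under 0.05, 0 were higher and 1 lower (TRIB2), beside 15.3% of all genes in each direction, and DESeq2 and limma called 0. They were TRIB1 with 0.33 (edgeR FDR = 0.187), TRIB2 with -0.42 (0.0993), SESN1 with 0.01 (0.968), SESN3 with -0.10 (0.790), CHAC2 with -0.43 (0.223), PPP1R15B with 0.13 (0.607) and ASNSD1 with -0.32 (0.206). PPP1R15B encodes the constitutive counterpart of GADD34, and its CPM was 70.8, 97.1 and 66.8 with Apatinib and 73.6, 73.1 and 68.4 in the controls. TRIB2 was the relative whose call changed: without Apatinib replicate 2 it was lower, at -0.63 (edgeR FDR = 0.0112). DDIT4L and NUPR1L had at most 1 count in any replicate and were not tested.

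Transcripts of the machinery upstream of ATF4 did not pass the test. Of 18 genes for eIF2alpha kinases, the eIF2 and eIF2B complexes and their regulators, edgeR called 0 in either direction, with log2 fold changes of -0.43 to 0.32. At an unadjusted p under 0.05, 1 was higher and 2 lower, beside the same 15.3% in each direction, and DESeq2 and limma called 0. These kinases are switched on by phosphorylation, which mRNA counts do not measure. Of the basic leucine zipper partners of ATF4 and CHOP, 2 of 6 tested rose and 0 fell, beside 5.97% of all genes higher and 5.48% lower, and 1 rose when control replicate 1 or 2 was left out, when they were summed or without Apatinib replicate 1. JDP2, a repressor that pairs with this family, rose by 1.45 on the log2 scale (edgeR FDR = 0.00441) and CEBPD by 0.79 (edgeR FDR = 0.0330). The CEBPD call was lost when Apatinib replicate 1 or 2 or control replicate 1 or 2 was left out (edgeR FDR 0.0591 to 0.132), and with these controls summed (0.117), and its log2 fold change without Apatinib replicate 2 was 0.50. ATF3, a stress factor of the AP-1 group named here after its values were seen, held 5.24, 24.1 and 3.49 CPM with Apatinib and 5.08, 5.94 and 4.72 CPM in the controls. Only replicate 2 was high, and ATF3 did not pass the test (log2 fold change 1.06, edgeR FDR = 0.216).

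The genes of amino acid supply known to be induced by ATF4 were counted by group, to be read beside the 5.97% of all genes called higher and 5.48% called lower. Among the enzymes of amino acid and one-carbon metabolism, 6 of 12 rose and 0 fell, with a median of 0.95. The count was 4 without control replicate 1 or 2, with these summed or by limma, 9 without Apatinib replicate 3 and 11 when low counts were not filtered. PHGDH, the first enzyme of serine synthesis, measured 232, 227 and 188 CPM with Apatinib and 90.4, 83.6 and 84.4 CPM in the controls. This was a rise of 1.32 on the log2 scale (edgeR FDR = 0.000437), and here replicate 2 did not stand apart from the other treated replicates. CBS, which starts the conversion of homocysteine to cysteine, rose by 1.02 (edgeR FDR = 0.00358) and PYCR1, of proline synthesis, by 0.83 (edgeR FDR = 0.00388), and both were called in all 14 alternatives.

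Of the amino acid transporters, 4 of 8 rose and 0 fell, with a median of 0.76, and limma on FPKM called 0 of the 8 while DESeq2 called 5 higher. The count was 1 without Apatinib replicate 1 or 2, and 0 without control replicate 1 or 2 or with these summed. SLC7A5, the light chain of the leucine transporter LAT1, measured 410, 739.5 and 306 CPM with Apatinib against 248.0, 249.2 and 198.0 CPM in the controls. The groups did not overlap, and the log2 fold change was 1.07 (edgeR FDR = 0.0256), with 0.0842, 0.0796 and 0.0854 without control replicate 1, without control replicate 2 and with both summed. Without Apatinib replicate 2 it was 0.63 (edgeR FDR = 0.0293). SLC1A5, a glutamine carrier, rose by 0.82 (edgeR FDR = 0.0377) and SLC1A4, a serine and alanine carrier, by 0.79 (edgeR FDR = 0.0422). Their calls were lost when any of Apatinib replicates 1 and 2 and control replicates 1 and 2 was left out, and without Apatinib replicate 2 their log2 fold changes were 0.45 and 0.41. With the controls summed their FDR was 0.120 and 0.129. Replicate 2 was at least 1.5 times every other sample in 6 of the 8 transporters and in 7 of the 12 enzymes.

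The tRNA synthetases and the tRNA exporter, which charge and deliver tRNA, had the greatest share of rises of the lists in the main fit. There 6 of 9 rose and 0 fell, with a median of 0.89, beside 5.97% of all genes higher and 5.48% lower. The count was 4 of 9 without control replicate 1 or 2 or with these summed. At an unadjusted edgeR p under 0.05, 7 of 9 were higher, against 11 of 12 amino acid and one-carbon enzymes and 15.3% of all genes. AARS rose by 1.18 (edgeR FDR = 0.00331), SARS by 1.05 (edgeR FDR = 0.00361) and MARS by 0.93 (edgeR FDR = 0.00358), and all held in each of the 14 alternatives. Among 12 other targets of ATF4 and CHOP, 5 rose and 0 fell, beside 5.97% of all genes higher and 5.48% lower. Their median was 0.70. The count was 3 without control replicate 1 or 2, and 2 with these summed. SQSTM1, an adaptor of selective autophagy, rose by 0.86 (edgeR FDR = 0.00375) and FAM129A by 1.21 (edgeR FDR = 0.0104). ADM2, a secreted peptide, had the largest rise of the list, 2.28 (edgeR FDR = 0.0136), from 8.37, 8.41 and 4.72 CPM to 24.4, 65.5 and 13.9 CPM, and 1.43 without Apatinib replicate 2. ADM2 was not called with control replicates 1 and 2 summed (edgeR FDR = 0.0501) or by limma on FPKM (FDR = 0.0648 and 0.0544 for the pseudocounts of 1 and 0.1). GDF15, a secreted stress cytokine named here after its values were seen, held 9, 125 and 5 counts in the treated and 3, 9 and 6 counts in the control replicates, and did not pass the filter on low counts.

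The programs that neighbour ATF4 signalling were also counted. Of 5 cell death genes linked to CHOP, only GADD45A was called, beside 5.97% of all genes higher and 5.48% lower. GADD45A measured 33.7, 96.5 and 27.4 CPM treated and 22.0, 20.2 and 19.6 CPM in the controls. Its log2 fold change of 1.35 (edgeR FDR = 0.0383) was 0.57 without Apatinib replicate 2, where the call held, and it was not called by DESeq2 (adjusted p = 0.0811) or without control replicate 1 or 2 (edgeR FDR = 0.107 and 0.117) or with these summed (0.114). Of 23 genes of the IRE1 and ATF6 arms of the unfolded protein response, XBP1 rose, DERL3 fell and 21 did not pass, with a median of 0.01. That is 8.7% called, against 11.5% of all genes tested (5.97% higher and 5.48% lower). XBP1, whose mRNA is spliced by IRE1, rose by 0.83 (edgeR FDR = 0.0104, with 0.0561, 0.0542 and 0.0552 without control replicate 1, without control replicate 2 and with both summed). DERL3, a low-abundance gene at 1.82 CPM with Apatinib and 3.50 CPM in the controls, fell by 0.95 (edgeR FDR = 0.0421), a call lost in each of the 6 analyses that left out a replicate (edgeR FDR 0.0540 to 0.141) and with the controls summed. The whole list had 0 calls without control replicate 1 or 2 or with these summed. Limma on FPKM did not call CEBPD, GADD45A or DERL3 with either pseudocount. When low counts were not filtered, 5 bZIP partners, 6 transporters, 7 tRNA genes, 8 other targets, 2 cell death genes and 3 genes of the IRE1 and ATF6 arms were called. In that setting 2559 genes were called in all. Over all 9 lists, 99 of 104 genes were tested, 25 rose and 1 fell, which is 26.3% called against 11.5% of all genes.

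**Figure D4:**
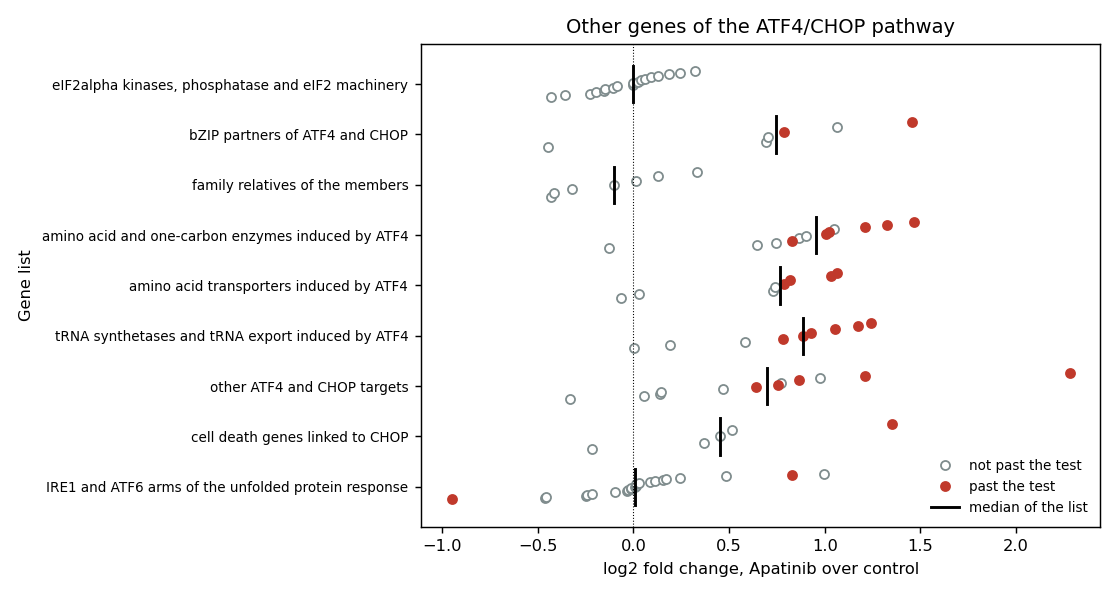
The log2 fold change, Apatinib over control, of each tested gene on 9 lists of other pathway genes, filled in red where the gene passed the edgeR test, with a black bar at the list's median. The lists of enzymes, transporters, tRNA synthetases and other targets lie mostly above 0, with medians of 0.70 to 0.95, and the eIF2 list and the IRE1 and ATF6 list are centred on 0.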

How the data were processed

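RNA of 6 SW872 samples was analysed, 3 treated with Apatinib and 3 controls, grouped by their labels. The authors deposited a table of raw gene counts, not normalized, together with FPKM values per replicate, scaled by transcript length and mapped fragments. The submitters' processing notes name CASAVA, STAR 2.7.1a and hg19. The counting program, the annotation and the strand setting are not given in the sources used here. In the FPKM values of Apatinib replicate 1, 1 extra column headed with a control's label was not used.

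The count model was fitted with edgeR 4.0.16 in R 4.3.3 (filterByExpr, TMM factors of 0.952 to 1.03, quasi-likelihood F test, Benjamini-Hochberg adjustment). Log2 CPM used a prior count of 2. Thresholds were an FDR of 0.05 and a log2 fold change of 0.5 in size. Overlaps of exons came from GENCODE 29, and no positions are given in hg19. Each tool was tested on simulated data. P values test the difference between the groups against the spread of these samples, estimated with information shared between genes. That spread may in part be technical.

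Alternatives were DESeq2 1.42.0, DESeq2's size factors in edgeR, no filter beyond a total of 1 count, a minimum of 10 counts per sample, a block on the replicate number, control replicates 1 and 2 summed because of their closeness, limma 3.58.1 with a pseudocount of 1 or 0.1 on the log2 FPKM scale for genes with a mean FPKM over 0.5, and leaving out each replicate. An FDR limit without a fold change limit was also tried. Pairs of libraries were compared by chi-square over genes with at least 50 counts.

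The members, lists and tests were chosen with earlier results of these data known, so no list has a test of its own. All members and all family relatives are named. On each other list up to 3 called genes of smallest edgeR p are named, as are the 3 genes most like ATF4 and DDIT3 by Pearson correlation. Nothing here tests protein, splicing or translation.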

Additional observations from a re-analysis of the deposited data

How the results depend on the processing

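NUPR1 and ASNS were called in all 14 alternatives, and ATF5 and DDIT4 in none. Of the 10 members 4 were called, against 8 without the filter on low counts (DDIT3, CHAC1, SESN2 and PPP1R15A being added) and 2 with control replicates 1 and 2 summed, and from 2 to 6 when a replicate was left out, all of them higher. Among all genes tested 1866 were called, against 2559 without the filter and 292 with these controls summed. Limma called 796 and 810 with pseudocounts of 1 and 0.1. When a replicate was left out, the count was from 275 (without control replicate 1) to 2594 (without control replicate 3). On the other pathway lists 26 genes were called, against 42 without the filter, 11 with these controls summed, 13 by limma with either pseudocount, and from 12 to 37 when a replicate was left out. The members' median was lowest, 0.29, when Apatinib replicate 2 was left out and highest, 1.196, when replicate 3 was. No pairing by replicate number was seen: deviations from the group mean correlated at -0.259, 0.0808 and -0.220 for replicates 1, 2 and 3. Of 6 samples, 0 correlated best with its own number. Control replicates 1 and 2 were so close that pairing with 1 of them could hardly be told from pairing with the other. With the replicate number as a block, 7 members were called, PPP1R15A, CHAC1 and SESN2 being added, and 2215 genes in all. Log2 fold changes that changed sign when a replicate was left out ranged from -0.026 to 1.12 for DDIT3, -0.030 to 0.57 for DDIT4, -0.069 to 0.094 for SESN1, -0.20 to 0.037 for SESN3, -0.053 to 0.23 for PPP1R15B, -0.034 to 0.39 for RFFL, -0.0049 to 0.19 for PPP1R13B and -0.024 to 0.18 for CYP4F12. The lowest of these came without Apatinib replicate 2, except for SESN1 (-0.069 without control replicate 1 and -0.062 without Apatinib replicate 1) and SESN3, whose highest came without it. The cause of these differences was not tested. With 3 replicates a group and this spread in the treated group, intervals of DDIT3, SESN2 and DDIT4 include both 0 and rises past the threshold, so their failing the test does not show that they did not change. SESN3, with a mean FPKM under the minimum, has no limma value.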
